A study of Homo sapiens with 6 samples.

Results

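Chemokines are small secreted proteins that guide leukocytes along a concentration gradient by binding G protein-coupled receptors. The CXC chemokines that carry the residues glutamate, leucine and arginine before their first cysteines attract neutrophils through the receptors CXCR1 and CXCR2, while other CXC and CC chemokines attract T cells, monocytes or dendritic cells. In epithelial and bladder carcinoma cells many of these genes are known as targets of NF-kB, a transcription factor switched on by interleukin-1 and tumour necrosis factor, and CXCL10 and CCL5 also respond to interferon signalling.

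The set described here is 10 chemokine genes of 18132 genes measured, chosen by name: CXCL1, CXCL2, CXCL3, CXCL5 and CXCL8, which attract neutrophils, and CXCL10, CXCL16, CCL2, CCL5 and CCL20, which mainly attract other leukocytes. All 10 were measured, by 20 of the 44988 probe sets that the platform's annotation gives exactly 1 gene symbol. No filter on low values was applied.

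The arrays compared 2 groups of T24 cells, a human urothelial bladder carcinoma line, cultured in DMEM with serum. One group had 3 control arrays, titled as normal T24 cells, and no source used here says what treatment they received. No collection time is given for them. The other had 3 arrays of cells exposed to MAP30, a ribosome-inactivating protein from bitter melon (Momordica charantia), at 10 µg/ml, with collection at 48 hours. The replicates are not stated to come from separate cultures, so each p-value reflects only how far these samples vary, possibly for technical reasons. With 1 cell line, every statement is about that line.

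Values are on the log2 scale and were centred: each probe set has a median of 0 over the 6 arrays. Only differences between arrays carry meaning. No gene can be called abundant or absent, levels of different genes cannot be ranked, and the urothelial identity of the cells could not be checked by levels of its markers. A difference below is the mean of the MAP30 arrays minus the mean of the control arrays on the log2 scale, and a gene passed when the Benjamini-Hochberg adjusted p of limma over all genes was under 0.05. Both directions were common among all genes: 26.9% passed as higher and 30.6% as lower. In 62.6% of genes the groups did not overlap. The SD of the difference between arrays over all probe sets ran from 0.131 to 0.147 within groups and from 0.677 to 0.681 between groups.

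Promoter sequences are shown first because the neutrophil-attracting genes stand close together on chromosome 4 and share a sequence there. Of the 10 genes, 7 had an entry in RefSeq's promoter table (GRCh38.p14). CXCL6, a neighbouring neutrophil-attracting gene outside the set, was added for comparison. Each line gives the 130 bases just before the annotated start of the gene, read 5′ to 3′ on the gene's strand. Capitals mark a match to the kappa-B consensus, the DNA motif of NF-kB, or to its short form GGAATTTCC, on either strand.
CXCL3, chr4:74038690-74038819, minus strand: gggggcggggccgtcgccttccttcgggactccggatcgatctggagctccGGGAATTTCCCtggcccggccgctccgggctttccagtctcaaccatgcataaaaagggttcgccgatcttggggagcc
CXCL2, chr4:74099196-74099325, minus strand: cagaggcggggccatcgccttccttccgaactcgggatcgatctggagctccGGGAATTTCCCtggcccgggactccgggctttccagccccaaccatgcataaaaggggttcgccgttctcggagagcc
CXCL1, chr4:73869263-73869392, plus strand: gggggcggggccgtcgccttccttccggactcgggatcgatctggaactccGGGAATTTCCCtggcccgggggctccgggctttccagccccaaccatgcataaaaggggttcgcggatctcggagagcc
CXCL5, chr4:73998678-73998807, minus strand: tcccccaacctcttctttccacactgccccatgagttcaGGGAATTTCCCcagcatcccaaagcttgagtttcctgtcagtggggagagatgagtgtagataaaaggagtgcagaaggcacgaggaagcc
CXCL6, chr4:73836548-73836677, plus strand: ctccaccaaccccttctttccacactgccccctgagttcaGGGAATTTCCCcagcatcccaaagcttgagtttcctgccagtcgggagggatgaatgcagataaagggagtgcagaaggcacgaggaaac
CXCL8, chr4:73740439-73740568, plus strand: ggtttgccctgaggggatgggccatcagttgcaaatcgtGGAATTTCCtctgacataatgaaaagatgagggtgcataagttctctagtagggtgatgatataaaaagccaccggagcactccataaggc
CCL20, chr2:227813712-227813841, plus strand: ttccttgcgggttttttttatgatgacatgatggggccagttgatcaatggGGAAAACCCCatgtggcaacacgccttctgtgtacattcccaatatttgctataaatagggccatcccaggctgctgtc
CXCL10, chr4:76023498-76023627, minus strand: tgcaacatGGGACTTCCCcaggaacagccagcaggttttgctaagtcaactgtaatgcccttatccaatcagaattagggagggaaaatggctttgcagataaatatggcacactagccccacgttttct

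CXCL1, CXCL2, CXCL3 and CXCL5 held the run GGGAATTTCCC, which matches the consensus on both strands, and CXCL6 held it too. In CXCL1 and CXCL3 the match lay at positions -79 to -70 from the start, in CXCL2 at -78 to -69 and in CXCL5 at -91 to -82. CXCL8 matched only the short form, at -91 to -83. CCL20 matched the consensus on the other strand at -79 to -70. CXCL10 matched it at -122 to -113 and again further upstream at -177 to -168, outside the printed stretch. Over the table's full window of 300 bases, 6 of the 7 genes with an entry held the consensus and 6 the short form, against 5.91% and 0.461% of the 35116 promoters of the table. The AP-1 site TGANTCA stood in CXCL8 alone of the 7 and in 7.71% of all promoters. The interferon response core GAAANNGAA stood in CXCL2, CXCL3 and CXCL10 and in 8.11% of all promoters. The box TATAAA stood in CXCL8 and CCL20 and in 11.5% of all promoters. These are matches of letters in a window, on both strands, not measured binding.

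The printed stretches of CXCL1 and CXCL2 were 92.4% identical when aligned, those of CXCL1 and CXCL3 91.5% and those of CXCL2 and CXCL3 87.9%. CXCL5 and CXCL6 were 90.8% identical. All other pairs shared between 42.9% and 54.8%. By this stretch CXCL1, CXCL2 and CXCL3 form a trio and CXCL5 pairs with CXCL6, while CXCL8 is unlike the others.

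All 5 neutrophil-attracting genes of the set were higher with MAP30, by 1.66-fold to 12.4-fold. For each of them the 3 MAP30 arrays lay above the 3 control arrays. They are not the whole class. Of neutrophil-attracting genes outside the set, CXCL6 was lower (-0.69), with 1 of its 2 probe sets lower, and PPBP (0.05) did not pass. Of the 5 other chemokine genes of the set CCL5 and CCL20 were higher and CXCL10, CXCL16 and CCL2 did not pass. In all, 7 of 10 passed as higher and 0 as lower, where 26.9% of all genes passed as higher and 30.6% as lower. The groups did not overlap in the same 7 genes, against 62.6% of all genes. The median difference was 1.42 over the neutrophil-attracting genes of the set, 0.08 over its others and -0.02 over all genes. These counts and medians describe a list that was named with earlier results of these data known, and the contrast between the 2 classes was not tested. In bulk RNA a change in the share of cells that express a gene and a change in RNA per cell cannot be told apart.

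CXCL3, also called GRO gamma, had the largest difference. It stood at -1.80, -1.81 and -1.83 on the control arrays and at 1.85, 1.81 and 1.80 on the MAP30 arrays. The groups were far apart and each was tight, with an SD of 0.01 in control and 0.03 with MAP30 (n = 3 each). The rise was 12.4-fold (log2 difference 3.63 ± 0.03 SE, adjusted p by limma 2.98e-09), with a 95% interval of 11.8-fold to 13.1-fold. It was the gene with rank 26 among all 18132 by size of rise.

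CXCL2, also called GRO beta, came next. Its control arrays stood at -1.23, -1.26 and -1.32 and its MAP30 arrays at 1.30, 1.29 and 1.24. The rise was 5.83-fold (2.54 ± 0.04 SE, adjusted p by limma 9.51e-09) with a 95% interval of 5.46-fold to 6.21-fold, which does not reach that of CXCL3. CXCL2 ranked 99 of all genes.

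CXCL8, which encodes interleukin-8, the best known neutrophil attractant, was at -0.67, -0.72 and -0.77 in control and at 0.70, 0.72 and 0.68 with MAP30. The 2.67-fold rise (1.42 ± 0.04 SE, adjusted p by limma 6.98e-08) had a 95% interval of 2.51-fold to 2.84-fold. It was smaller than that of CXCL2, with intervals that do not meet, though sizes were not tested between genes. All these intervals carry scatter between arrays only, not the disagreement between probe sets of 1 gene that is given below.

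CXCL5 and CXCL1 moved least among the neutrophil attractants of the set. CXCL5, also called ENA-78, was at -0.42, -0.37 and -0.41 in control and at 0.41, 0.43 and 0.38 with MAP30, a 1.74-fold rise (0.80 ± 0.03 SE, adjusted p by limma 4.9e-07). CXCL1, or GRO alpha, was at -0.36, -0.36 and -0.40 in control and at 0.37, 0.36 and 0.34 with MAP30, a 1.66-fold rise (0.73 ± 0.03 SE, adjusted p by limma 6.45e-07). Their 95% intervals, 1.65-fold to 1.84-fold and 1.58-fold to 1.75-fold, overlap, and the difference between these neighbours in the order was not tested. CXCL1 and CXCL3, 91.5% identical over the printed promoter stretch, rose 1.66-fold and 12.4-fold, and a link to that stretch was not tested.

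**Figure D1:**
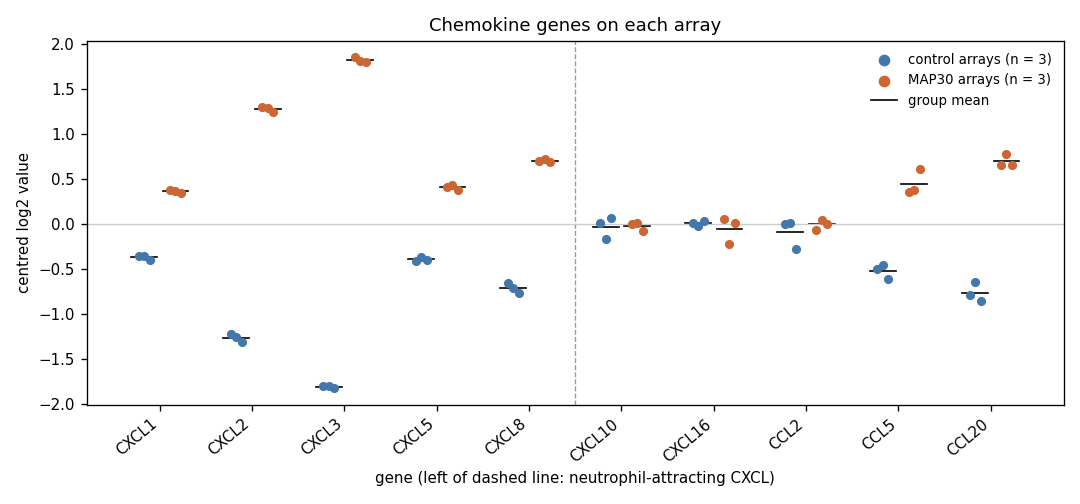
Centred log2 value (vertical axis) of the 10 chemokine genes on each of the 3 control arrays (blue points) and 3 MAP30 arrays (orange points), with a black line at each group mean. The groups are apart for CXCL1, CXCL2, CXCL3, CXCL5, CXCL8, CCL5 and CCL20 and overlap for CXCL10, CXCL16 and CCL2; because values are centred, only the distance between colours within a gene can be read.

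Among the others CCL20, which attracts CCR6-bearing dendritic cells and lymphocytes, rose most. Its control arrays stood at -0.79, -0.65 and -0.87 and its MAP30 arrays at 0.65, 0.77 and 0.66. The rise was 2.76-fold (1.46 ± 0.06 SE, adjusted p by limma 5.35e-07) with a 95% interval of 2.49-fold to 3.05-fold, which overlaps that of CXCL8. A single probe set measured CCL20.

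CCL5, also called RANTES, a T cell and monocyte attractant, was at -0.50, -0.46 and -0.61 in control and at 0.35, 0.38 and 0.60 with MAP30. The third MAP30 array stood above the other two, and the group's SD of 0.14 was wider than that of any neutrophil-attracting gene. CCL5 rose 1.96-fold (0.97 ± 0.08 SE, adjusted p by limma 1.49e-05), with a 95% interval of 1.73-fold to 2.21-fold that overlaps that of CXCL5.

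CXCL10, an interferon-induced attractant of CXCR3-bearing T cells, was at 0.00, -0.17 and 0.06 in control and at 0.00, 0.01 and -0.08 with MAP30. CXCL16, a membrane-anchored ligand of CXCR6, was at 0.01, -0.02 and 0.03 in control and at 0.05, -0.23 and 0.00 with MAP30, where the second array stood low. CCL2, the monocyte attractant MCP-1, was at 0.00, 0.00 and -0.28 in control, the third array being low, and at -0.07, 0.04 and 0.00 with MAP30.

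The groups overlapped for these 3 genes. Their differences were 0.01 for CXCL10 (95% interval -0.14 to 0.16), -0.07 for CXCL16 (-0.24 to 0.11) and 0.08 for CCL2 (-0.11 to 0.27), with adjusted p-values by limma of 0.903, 0.488 and 0.422. Changes of the array value as large as that of CXCL1 lie outside all 3 intervals. Signal over background was lost with the levels, so whether these probe sets were dim is not known. The third control array set the sign for CCL2, which stood at -0.01 without it. Likewise CXCL16 stood at 0.02 without MAP30 replicate 2, and CXCL10 at -0.06 without control replicate 2 and at -0.0065 without MAP30 replicate 2.

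**Figure D2:**
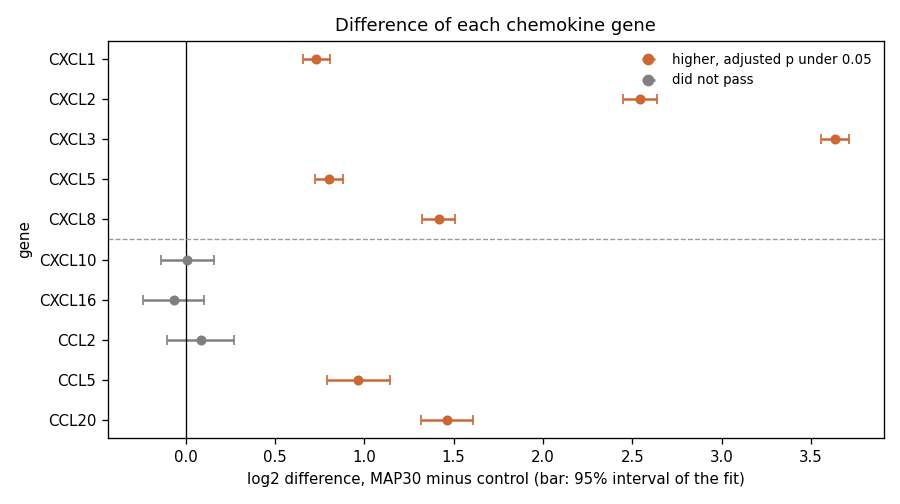
Log2 difference between MAP30 and control (horizontal axis) of each chemokine gene, with the 95% interval of the limma fit (n = 3 arrays per group); orange genes passed as higher and grey genes did not pass. CXCL3 (3.63) and CXCL2 (2.54) stand apart from the rest, and the intervals of CXCL10, CXCL16 and CCL2 include 0.

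Scaling matters for the genes near 0. The RNA spiked in as hybridization controls and as poly-A controls moved in opposite directions, so centring each array on the first (hybridization scaling) put the median of all genes at -0.23 and centring on the second (poly-A scaling) at 0.14. The share of rises among all calls was 46.8% as deposited, 21.1% with hybridization scaling and 70.3% with poly-A scaling. Of all genes, 17% passed as higher and 63.7% as lower with hybridization scaling, and 49.1% and 20.7% with poly-A scaling, and the list counts given below under each scaling are to be read against these shares. The 7 genes that passed did so under both, and their differences shifted by the same amount. With hybridization scaling CXCL10 (-0.20) and CXCL16 (-0.27) passed as lower. With poly-A scaling CCL2 (0.25) passed as higher. The contrast between the classes is unaffected by any such shift, which moves all genes alike. Quantile normalization drew the largest differences in, to 2.89 for CXCL3 and 2.12 for CXCL2.

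**Figure D3:**
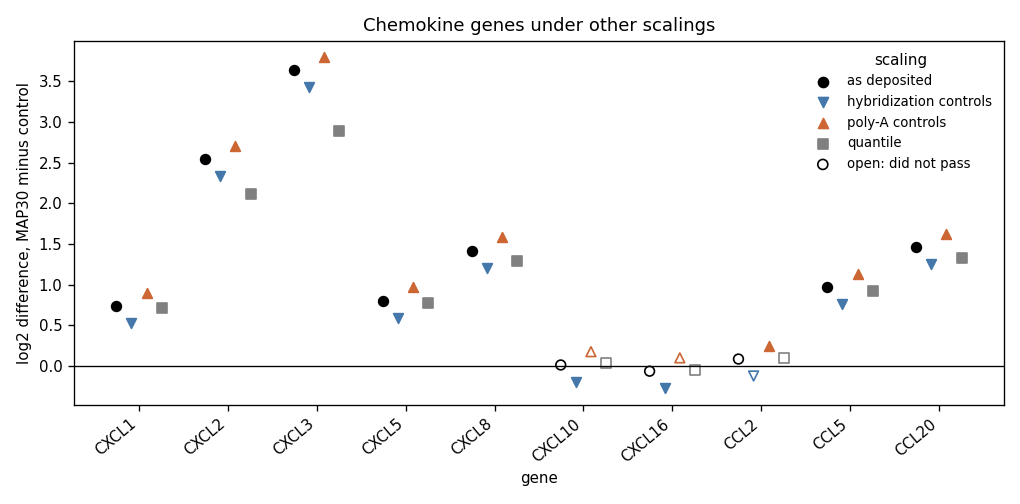
Log2 difference (vertical axis) of each chemokine gene as deposited, with each array centred on hybridization or on poly-A control probe sets, and after quantile normalization; filled symbols passed and open symbols did not. The 7 genes that rose stay above 0 under all 4 scalings, while CXCL10, CXCL16 and CCL2 move across 0.

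Probe sets of 1 gene gave a second view, in a fit over all 44988 of them. Of the 20 that name a chemokine of the set, 16 passed as higher and 0 as lower, where 26.5% of all probe sets passed as higher and 30.3% as lower. All 12 probe sets of the neutrophil-attracting genes and 4 of the 8 of the others passed. CXCL3 was measured at 3.54 by its _a_at probe set and at 3.72 by its _at probe set. CXCL2 was measured at 2.96 by the _at probe set but at 2.13 by the _x_at probe set, a class that can match other transcripts, and the 95% intervals, 2.82 to 3.09 and 2.02 to 2.24, do not meet.

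For CXCL8 the range was from 1.09 (the _s_at probe set) to 1.65 (the _x_at probe set), and for CXCL1 from 0.65 (the _s_at probe set) to 0.81 (the _a_at probe set). CXCL5 ranged from 0.73 to 0.85 over 3 probe sets. CCL5 ranged from 0.69 (the _at probe set) to 1.22 (the _a_at probe set), and on the first of these a control array, at -0.13, came near the lowest MAP30 array, at 0.13. Since CXCL1, CXCL2 and CXCL3 are close paralogs, their probe sets may share signal, and the split of the rise among the trio is uncertain to that extent.

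**Figure D4:**
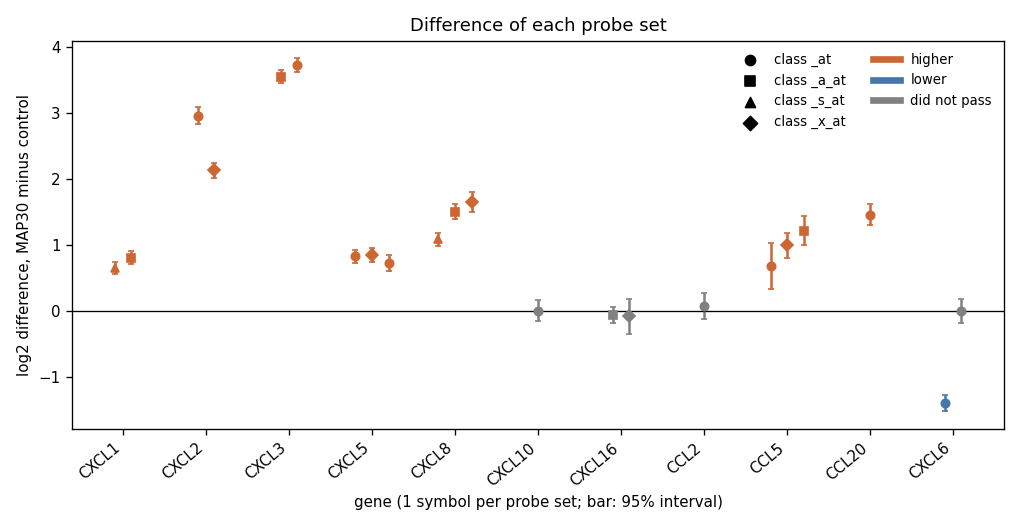
Log2 difference (vertical axis) of each probe set of the 10 chemokine genes and of CXCL6, with 95% intervals; the symbol gives the probe set's class and the colour its call. Probe sets of 1 gene have the same direction among the 7 genes that rose, whereas CXCL6 has one at -1.39 and one at 0.01.

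The order of genes along the chromosome showed rises and falls side by side. In RefSeq (GRCh38.p14) the protein-coding genes between RASSF6 and MTHFD2L on chromosome 4 are CXCL8, CXCL6, PF4V1, CXCL1, PF4, PPBP, CXCL5, CXCL3 and CXCL2. CXCL6, which encodes a neutrophil attractant close to CXCL5, was at 0.27, 0.44 and 0.36 in control and at -0.27, -0.34 and -0.39 with MAP30. Every MAP30 array lay below every control array, a difference of -0.69 ± 0.05 SE (adjusted p by limma 1.44e-05). The fall came from 1 of its 2 probe sets, at -1.39 (95% interval -1.51 to -1.27), while the other stood at 0.01 (-0.18 to 0.19) and did not pass. CXCL5 and CXCL6 are 90.8% identical over the printed stretch and hold the same kappa-B run. CXCL5 was higher, while CXCL6 was lower by 1 of its 2 probe sets. A link between promoter sequence and difference was not tested.

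The platelet chemokine genes PF4V1 (-0.04), PF4 (-0.06) and PPBP (0.05), which lie inside the cluster, did not pass as deposited. PF4V1 (-0.25), PF4 (-0.27) and PPBP (-0.16) passed as lower with hybridization scaling, and PPBP (0.22) as higher with poly-A scaling. Beyond the ends MTHFD2L, a mitochondrial folate enzyme gene, was higher by 0.47, and RASSF6 (0.12) did not pass. RASSF6 passed with poly-A scaling (0.28), centring on the median (0.13), quantile normalization (0.14), the replicate block (0.12) and without MAP30 replicate 2 (0.15).

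CXCL10 lies elsewhere on chromosome 4, between ART3 (-0.01) and CXCL11 (0.38). ART3 passed as lower (-0.22) with hybridization and as higher (0.15) with poly-A scaling. Beside CCL20, DAW1 was higher by 1.04. Beside CCL5, HEATR9 (-0.06) and RDM1 (-0.05) did not pass, nor did ASIC2 (0.04) and CCL7 (-0.15) beside CCL2. MED11 (-0.78) was lower and ZMYND15 (-0.07) did not pass beside CXCL16. CCL7 passed as lower without MAP30 replicate 1 (-0.34). With hybridization scaling HEATR9 (-0.27), RDM1 (-0.26), ASIC2 (-0.16), CCL7 (-0.36) and ZMYND15 (-0.27) passed as lower, and with poly-A scaling ASIC2 (0.21) passed as higher.

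**Figure D5:**
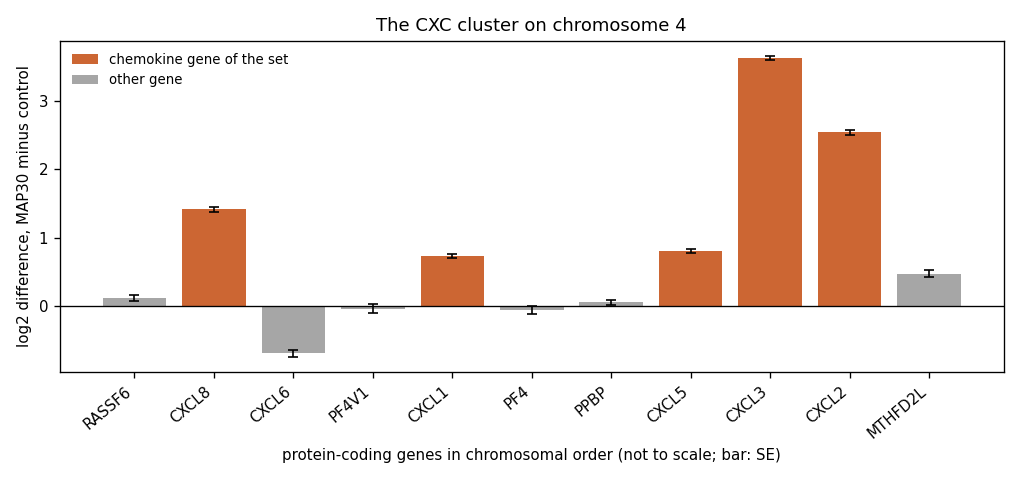
Log2 difference (bar height, with SE, n = 3 arrays per group) of 11 protein-coding genes in their order along chromosome 4, not to scale; orange bars are genes of the set and grey bars are not. CXCL3 and CXCL2 at one end are highest, and CXCL6 (-0.69) points down beside CXCL8 (1.42).

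Of the 10 other CXC ligands, CXCL11 was higher and CXCL6 lower, where 26.9% of all genes passed as higher and 30.6% as lower. CXCL11, an interferon-induced ligand of CXCR3 like CXCL10, was at -0.09, -0.25 and -0.20 in control and at 0.09, 0.14 and 0.36 with MAP30. Its difference was 0.38 ± 0.08 SE (adjusted p by limma 0.00398), with 3 of 3 probe sets higher, and it did not pass with hybridization scaling (0.17).

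Of 20 other CC, XC and CX3C ligands measured, 0 were higher and 2 lower (all genes: 26.9% and 30.6%), the eosinophil attractants CCL11 (-0.20) and CCL26 (-0.23). Both lost the call with poly-A scaling (-0.04 and -0.06). CCL11 did not pass without control replicate 2 (-0.16), MAP30 replicate 2 (-0.17) or MAP30 replicate 3 (-0.19), and CCL26 did not pass without control replicate 2 (-0.21). The medians were -0.01 for the CXC and -0.03 for the other ligands, against -0.02 over all genes. With hybridization scaling 8 and 15 ligands of these lists passed as lower, against 63.7% of all genes, and with poly-A scaling 4 and 6 as higher, against 49.1%.

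The receptors of the neutrophil attractants did not pass: CXCR1 stood at -0.08 and CXCR2 at -0.07. CXCR1 passed as lower without MAP30 replicate 1 (-0.15) and with hybridization scaling (-0.28). CXCR2 did so with hybridization scaling (-0.28) and with only the _at and _a_at probe sets (-0.12). Of 19 other receptor genes, 4 were higher, a share near the 26.9% of all genes, and 1 was lower, where 30.6% of all genes were. The counts were 2 and 11 with hybridization scaling (all genes: 17% and 63.7%) and 9 and 0 with poly-A scaling (49.1% and 20.7%). CCR4, a receptor of T cells for other CC chemokines, was higher by 2.15 in the mean of its 2 probe sets, which both passed as higher, and CCR10, a receptor for skin and mucosal chemokines, by 0.59.

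CX3CR1 (0.28), the fractalkine receptor, and CCRL2 (0.16), a non-signalling receptor, were also higher, each with 1 of 2 probe sets higher. CXCR5 (-0.12), a chemokine receptor of B cells, was lower, with 1 of 2 probe sets lower. CX3CR1 (0.08) and CCRL2 (-0.05) did not pass with hybridization scaling. CCRL2 also lost its call without control replicate 1 (0.15), control replicate 2 (0.12), MAP30 replicate 1 (0.16) or MAP30 replicate 3 (0.14). CXCR5 lost its call without control replicate 1 (-0.11), control replicate 3 (-0.12), MAP30 replicate 1 (-0.12) or MAP30 replicate 2 (-0.10), with poly-A scaling (0.04) and with centring on the median (-0.10).

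Genes that shed, cleave or present chemokines went both ways, with 5 higher and 6 lower of 14, as did all genes, of which 26.9% were higher and 30.6% lower. Hybridization scaling gave 2 and 9, and poly-A scaling 7 and 6. ADAM10, the protease that releases CXCL16 from the membrane, was 2.03-fold lower (-1.02), with 4 of 4 probe sets lower. The related protease gene ADAM17 was higher by 0.20, though it stood at -0.01 with hybridization scaling. SDC1, a heparan sulfate proteoglycan gene, was 3.33-fold lower (-1.74), and MMP14 (-0.91), a membrane metalloproteinase gene, and EXT2 (-0.87), a heparan sulfate polymerase gene, were also lower. The other rises were MMP12 (0.71), EXT1 (0.67), MMP1 (0.26) and DPP4 (0.23). MMP1 and DPP4 each had 1 of 2 probe sets higher. MMP1 (0.05) and DPP4 (0.02) did not pass with hybridization scaling, nor MMP1 (0.19) with only the _at and _a_at probe sets.

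Genes of the interleukin-1, TNF and interleukin-17 route to NF-kB were higher in 19 of 29 measured and lower in 5, with a median of 0.53, where 26.9% of all genes were higher and 30.6% lower. The all-gene median was -0.02. The counts were 18 and 10 with hybridization scaling (all genes: 17% and 63.7%) and 22 and 5 with poly-A scaling (49.1% and 20.7%). TNFAIP3, a feedback inhibitor of NF-kB, was 7.56-fold higher (2.92), and the subunit genes NFKB2 (2.59), REL (1.70), RELB (1.66), NFKB1 (1.27) and RELA (0.72) were all higher. NFKBIZ, a co-activator known from CXCL promoters, rose by 0.91 and the inhibitor gene NFKBIA by 0.80. Of the ligands IL1A rose by 1.57, IL1B by 0.87 and TNF by 0.47.

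The 5 genes of that route that fell were IRAK1 (-0.79), TNFRSF1A (-0.51), MYD88 (-0.50), IL17RA (-0.49) and IL17RC (-0.42). TNFRSF1A stood at 0.09 and did not pass with only the _at and _a_at probe sets.

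The interferon and RNA-sensing route to CXCL10 and CCL5 was lower in 9 of 18 genes measured, where 30.6% of all genes were lower, and higher in 4, a share near the 26.9% of all genes. IFNAR2 (-1.18), an interferon receptor gene, MAVS (-0.99), the adaptor of RNA sensors, and the kinase gene TYK2 (-0.68) were lower. TBK1 (0.77), IRF1 (0.40), IRF7 (0.17) and CGAS (0.13) were higher, CGAS with 1 of its 2 probe sets higher. IRF7 (-0.04) and CGAS (-0.07) did not pass with hybridization scaling. IRF7 lost its call without control replicate 2 (0.15), control replicate 3 (0.18), MAP30 replicate 1 (0.13) or MAP30 replicate 3 (0.16), and CGAS without any 1 array other than MAP30 replicate 2 (0.10 to 0.15). CGAS also lost it with the replicate block (adjusted p by limma 0.095), the median over probe sets (adjusted p 0.0501) and only the _at and _a_at probe sets (0.03). With hybridization scaling the list held 2 higher and 13 lower, and with poly-A scaling 7 and 5.

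Among factors that control decay of chemokine transcripts 5 of 15 were higher and 7 lower, where 26.9% of all genes were higher and 30.6% lower. The counts were 4 and 8 with hybridization scaling and 7 and 6 with poly-A scaling. ZFP36, which encodes tristetraprolin, a protein that speeds decay of AU-rich transcripts, was 3.1-fold higher (1.63), and the ribonuclease gene ZC3H12A was higher by 0.93. The other rises were RC3H2 (0.48), TIAL1 (0.46) and RC3H1 (0.26), which encode further RNA-binding proteins. RC3H1 stood at 0.05 and did not pass with hybridization scaling. ELAVL1 (-1.04), which encodes the stabilising protein HuR, and ZFP36L2 (-0.68) were lower.

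A further list held cytokines and inflammatory proteins, not all of which act mainly on neutrophils. Of 11 measured, 5 rose and 1 fell, against 26.9% and 30.6% of all genes. The counts were 4 and 5 with hybridization scaling and 7 and 1 with poly-A scaling. IL11 was 8.63-fold higher (3.11) and IL6 4.21-fold (2.07). CSF3, which encodes the neutrophil growth factor G-CSF, was 2.53-fold higher (1.34 ± 0.03 SE, adjusted p by limma 4.95e-08) with 3 of 3 probe sets higher. LIF rose by 0.91 and ANXA1, a brake on neutrophil recruitment, by 0.22, while SAA1 (-1.09), an acute-phase protein gene, fell. ANXA1 stood at 0.01 and did not pass with hybridization scaling.

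The gene patterns closest to that of CXCL3 over the 6 arrays, by root mean square difference of centred values, were PPP1R15A (0.0546), C6orf58 (0.0546) and IL1RL1 (0.0794). PPP1R15A, a regulatory subunit of the phosphatase of eIF2, was higher by 3.70, C6orf58 by 3.64 and IL1RL1, the receptor gene for interleukin-33, by 3.69. With 6 arrays in 2 groups, likeness here says mainly that the difference has the same size. None of the 10 genes passed as lower as deposited, so no pattern was sought for a fall (CXCL16, at -0.07, was the only one below 0).

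Markers of leukocytes were compared because leukocytes express many of these genes. Of 8 neutrophil markers 0 were higher and ELANE (-0.23) was lower, where 26.9% of all genes were higher and 30.6% lower. The ELANE call was lost with poly-A scaling (-0.07). Hybridization scaling gave 0 higher and 7 lower, and poly-A scaling gave 5 higher and 0 lower. Other leukocyte markers numbered 8: CD68 (0.45), MS4A1 (0.11) and ITGAM (2.76) passed as higher, CD14 (-0.26) and CORO1A (-0.78) as lower. Among their probe sets 0 of 3 of MS4A1, 1 of 2 of CD68 and 3 of 3 of ITGAM passed as higher. All probe sets of CD14 and CORO1A passed as lower. The pan-leukocyte gene PTPRC stood at 0.03 and did not pass, but passed as lower (-0.18) with hybridization scaling and as higher (0.19) with poly-A scaling. Their counts were 2 higher and 5 lower with hybridization scaling and 6 and 1 with poly-A scaling. CD14 stood at -0.10 and lost its call with poly-A scaling. MS4A1 stood at -0.10 without passing with hybridization scaling, and lost its call without any 1 array other than control replicate 3 (0.09 to 0.12), with the replicate block (adjusted p by limma 0.0575), the median over probe sets (0.09) and only the _at and _a_at probe sets (adjusted p 0.0585).

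Endothelial markers passing as higher were TEK (0.14) and KDR (0.22), of 5 measured. The only fibroblast marker to do so, of 6, was COL1A1 (0.14). Of all genes, 26.9% passed as higher and 30.6% as lower. The probe sets passing as higher were 2 of 3 for TEK, 1 of 2 for KDR and 2 of 5 for COL1A1. With poly-A scaling all 5 and all 6 were higher, against 49.1% of all genes. Hybridization scaling gave 3 and 5 lower, against 63.7%. The calls of KDR (0.01), TEK (-0.07) and COL1A1 (-0.06) were lost with hybridization scaling. KDR (0.13 to 0.22) and TEK (0.11 to 0.15) lost theirs without any 1 array other than MAP30 replicate 2, and COL1A1 (0.12 to 0.14) without control replicate 1 or 2 or MAP30 replicate 2 or 3. Among 12 urothelial markers GATA3 (2.12) and EPCAM (0.96) were higher and KRT7 (-1.03) lower. Since levels were removed, no marker can be said to be at 0 and no summed level can be given. Whether other cells had a part in the chemokine differences was not tested.

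A measure linked to RNA quality also moved with the groups. The log2 ratio of 3' over 5' control probe sets was higher with MAP30 by 0.158 for ACTB, where control arrays lay between -0.02 and 0.02 around their mean and MAP30 arrays between 0.15 and 0.16 above it. For GAPDH it was higher by 0.043. The part of this in the chemokine values was not tested.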

How the data were processed

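RNA of 3 control and 3 MAP30 samples of T24 cells was amplified, labelled with biotin and hybridised to Affymetrix 3' expression arrays, per the labels' protocols. The authors deposited a table of log2 values for 49395 probe sets, with each probe set's median over the arrays at 0. MAS5 and RMA are named in the submitters' processing notes, with no role given, and the base of the logarithm, taken as 2, is stated nowhere, so every fold rests on that reading. With levels removed, no filter on dim probe sets or background correction was possible. The number of arrays limits the precision.

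A gene's value was the mean of its probe sets with 1 symbol (44988; 1832 had several, 2473 none, 102 were controls). MAP30 was compared with control by limma 3.58.1 (R 4.3.3; lmFit, eBayes, two-sided, Benjamini-Hochberg over 18132 genes, threshold 0.05), with no block. The fit was tested on simulated data. Intervals of 95% come from the moderated fit and, for genes, do not include disagreement between probe sets. Tables and plots used Python 3.11.15, pandas 2.3.3, numpy 2.4.6 and matplotlib 3.10.9.

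The labels state no pairing, so numbers were not taken as pairs. Deviations of same-numbered arrays correlated at -0.04, 0.07 and 0.01 over genes. Those of arrays with different numbers correlated at -0.13 to 0.11. Alternatives were other scalings, other gene values, robust eBayes, the replicate block and leaving out each array.

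The members, lists and tests were chosen with earlier results of these data known. Named genes are the 10 members, per list up to 4 passing genes of largest difference, a few fixed genes, chromosomal neighbours and the nearest patterns. Genes named to account for counts of 5 or fewer, and IL1A, IL1B, TNF, NFKB1, RELA, NFKBIA and PTPRC, were chosen after their values were seen. Of the listed genes, 17 had no probe set of 1 symbol and were not analysed here. Promoters came from RefSeq, GRCh38.p14. The planned protein comparison was not made.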

Additional observations from a re-analysis of the deposited data

Results flagged for a closer look

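Among the probe sets with several gene symbols, which no comparison above used, 2 list a chemokine of the set. Both were higher on every MAP30 array than on any control array. Such separation is common here: the groups did not overlap, in either direction, in 62.6% of all genes. One, of class _x_at, lists CXCL1 and CXCL2 and stood at -0.41, -0.52 and -0.38 in control and at 0.39, 0.42 and 0.38 with MAP30, a difference of 0.83. That value lies close to the probe sets of CXCL1 alone (0.65 and 0.81) and below those of CXCL2 alone (2.13 and 2.96). The other, of class _s_at, lists CXCL5 and GLYR1 and stood at -0.21, -0.29 and -0.39 in control and at 0.29, 0.31 and 0.21 with MAP30, a difference of 0.56. GLYR1 measured by its own probe sets stood at 0.00 and did not pass (adjusted p by limma 0.975).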

How the results depend on the processing

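The 7 chemokine genes that rose passed as higher under all 14 alternatives. Of 140 values of the 10 genes under alternatives, 137 kept their direction and side of the threshold, or stayed short of it; the others are CXCL10 (-0.20) and CXCL16 (-0.27) with hybridization scaling and CCL2 (0.25) with poly-A scaling. The count of members passing as lower was 2 with hybridization scaling and 0 otherwise. Over all genes, hybridization scaling gave 3087 higher and 11558 lower, and poly-A scaling gave 8906 higher. With the replicate block 4838 genes were higher and 5483 lower, and 7 members higher; 3 of the 6 arrays correlated best with their own number. Among other named genes that passed as deposited or under the alternative, signs turned with hybridization scaling for PPBP (-0.16), PTPRC (-0.18), ASIC2 (-0.16), CCRL2 (-0.050), ADAM17 (-0.0081), TEK (-0.067), COL1A1 (-0.064), IRF7 (-0.039), CGAS (-0.074) and MS4A1 (-0.10), with poly-A scaling for ART3 (0.15) and CXCR5 (0.041), and with only the _at and _a_at probe sets for TNFRSF1A (0.095). Fitting probe sets in place of genes is described with the results. The causes were not tested. Signal over background was lost with the levels, so nothing can be said of dim probe sets.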
